A study of Homo sapiens with 32 samples.

Results

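Immediate-early genes are the fastest transcriptional responders to growth factors, serum, stress and mechanical handling, and their chromatin was followed here around the starts of 10 of them in a human cell line treated for 30 min with a degrader compound. The 10 genes were FOS, FOSB, JUN, JUNB, EGR1, EGR3, ATF3, IER2, IER3 and DUSP1. Their windows were those counted windows of 401 bp whose centre lay within 2000 bp of a GENCODE transcript start of a listed gene on the hg38 build. This gave 40 windows of the 212358 in the count table, of which 63366 lay as close to a start of any gene. The question was whether 30 min of compound, or the handling that goes with it, opened these fast-response loci.

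The cells were the HEK293T clone HEK_CloneZD29. HEK293T is an embryonic kidney line that carries the SV40 large T antigen, and in these cells the transcription factor ZNF143 was fused to an inducible degron. The counted libraries were replicates 9 to 16 of cells given 50 nM dTAGV-1 for 30 min, which recruits a ubiquitin ligase to the tag, and replicates 9 to 16 of controls, labelled DMSO. The treatment text of the labels speaks of untreated controls. All groups share the tagged ZNF143 and come from the same clone. The assay was ATAC-seq, in which accessible DNA is cut and tagged by the Tn5 transposase. Replicates 1 to 8 of both conditions were represented by a pooled list of peak summits only. The labels do not say whether the libraries came from separate cultures, so p-values measure only the spread between these libraries, which may be technical. The files hold no measure of the ZNF143 protein.

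The 16 counted libraries held 2275856 to 13671039 counts each. Control replicate 12 had the lowest total, and only 31.8% of its counts fell in the top decile of windows by level, against 38.9% in dTAGV-1 replicate 12, 41.8% in dTAGV-1 replicate 11, 45.8% in control replicate 11 and 48.1% to 49.6% in the other 12 libraries. Several values below moved with these libraries, and those are also given without them. Of 7 markers of the HEK293T line, 6 were tested, with summed levels at percentiles 76.6 to 99.5 of all genes. The other, LHX1, had 4 windows near its starts with only 5 counts over the 16 libraries. Of 9 markers of blood, liver, muscle, epidermis and islet, 4 were tested, at percentiles 7.71 to 60.8, and PTPRC, CD3E, ALB, KRT5 and INS had no window near a start.

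Immediate-early genes need no new protein to be switched on. Signals reach them mainly through the MAP kinases, which act on serum response factor and its ternary complex partners at the CArG box (an A- and T-rich core between CC and GG), and through CREB-family factors at the cAMP response element. FOS, FOSB, JUN and JUNB encode subunits of the AP-1 factor, ATF3 encodes a stress-induced ATF/CREB factor, EGR1 and EGR3 encode zinc finger factors, IER2 and IER3 encode small early-response proteins, and DUSP1 encodes a phosphatase that switches MAP kinases off again.

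The sequences below show where these response elements sit in counted windows of FOS, FOSB, EGR1, IER2, JUNB and DUSP1, outside exons. EGR3 also held CArG boxes, at -66 and -2034, and its sequence is not printed here. The elements were not used to choose the genes. JUN, ATF3 and IER3 held no exact match to either element, and variant forms were not searched. Letters were read from hg38 on the strand of the gene, 5′ to 3′. Capitals mark the CArG box or, in FOSB (its first capitals) and DUSP1, the cAMP response element TGACGTCA. Positions in base pairs are counted from the annotated canonical start. The FOS stretch is chr14:75278494-75278543, that of FOSB is chr19:45467651-45467751, those of EGR1 are chr5:138465041-138465144 and chr5:138465354-138465425, that of IER2 is chr19:13151834-13151883, that of JUNB is chr19:12789928-12789977, and that of DUSP1 is chr5:172771293-172771340 on the minus strand.
FOS, -334 to -285: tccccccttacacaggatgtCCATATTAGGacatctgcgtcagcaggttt
FOSB, -345 to -245: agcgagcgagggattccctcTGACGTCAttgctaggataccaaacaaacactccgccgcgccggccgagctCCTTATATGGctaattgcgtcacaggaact
EGR1, -438 to -335: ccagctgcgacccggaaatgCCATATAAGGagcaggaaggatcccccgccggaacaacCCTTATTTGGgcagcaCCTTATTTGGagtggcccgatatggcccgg
EGR1, -125 to -54: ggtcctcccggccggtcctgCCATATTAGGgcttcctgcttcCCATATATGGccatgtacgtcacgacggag
IER2, 1423 to 1472: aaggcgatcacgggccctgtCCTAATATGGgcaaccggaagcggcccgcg
JUNB, -1558 to -1509: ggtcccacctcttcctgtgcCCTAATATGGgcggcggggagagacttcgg
DUSP1, -145 to -98: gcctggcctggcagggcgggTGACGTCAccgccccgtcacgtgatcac

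The CArG box was common in these windows. It occurred in 8 of the 40 windows, or 20%, against 2.23% of all tested windows and 1.60% of all windows within 2000 bp of a start, all of the same length, searched on both strands. The 8 windows belonged to 6 of the 10 genes, EGR1, EGR3, FOS, FOSB, IER2 and JUNB. EGR1 held 5 copies upstream of its start, at positions -414, -376, -360, -100 and -78. FOS held its copy at -310 and FOSB at -270, and the copy of JUNB lay at -1534. That of IER2 lay at 1448 from the canonical start, inside the transcribed region. Its window is centred at -99 bp from another annotated start of IER2. The letters CCATATTAGG stood in both FOS and EGR1, and CCTAATATGG, which is the same box read on the other strand, in both IER2 and JUNB.

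The cAMP response element, searched as TGACGTCA on both strands, occurred in 3 of the 40 windows, or 7.50%, against 0.570% of tested windows and 1.18% of windows near starts. Its copies were at -122 in DUSP1, at -322 in FOSB beside the CArG box, and at 2600 in IER2. The AP1 site TGACTCA, which the AP-1 proteins bind, occurred in 1 window of ATF3 (2.50%), against 8.85% of tested windows and 6.09% near starts. That copy lay far from the canonical ATF3 start, at -41507. The exact ETS site CCGGAAGT and the ZNF143 core motif occurred in 0 of the 40. Their shares were 0.997% and 1.16% of tested windows, and 2.39% and 1.31% of windows near starts. At shares this low, 0 of 40 is not read as a lack, and other forms of the ETS site were not searched. All motifs given here are matches of letters and not measured binding.

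Most windows of these loci were among the more accessible counted windows, in control libraries too. Levels are given as log2 CPM, the log2 of counts scaled to library size (TMM) with a prior count of 2. Of the 40 windows, 38 had enough counts to be tested, and the 2 that did not were both of IER3. By level averaged over all 16 libraries of both groups, all 38 lay above the median of the 185040 tested windows, and 21 lay in the top decile. Among tested windows near starts of any gene their percentiles, by the same average, ran from 25.4 to 99.6, with a median of 77.3. In control libraries alone the 38 windows had a mean of 3.68 log2 CPM, against 2.61 for tested windows near starts. In the pooled summit list of replicates 1 to 8, 29 of the 40 windows held a summit, and the top summit of JUN, with a deposited -log10 score of 1066, stood at percentile 99.4 of that list. By annotation, 24 of the 40 centres lay outside the gene, 10 in an intron, 3 in untranslated exons, 2 in coding exons and 1 in another exon. Of the 40 windows 24 overlapped another, so that neighbours share counts. The FOSB windows also lay within the annotated span of ERCC1 and those of JUNB within that of HOOK2, and 2 of the IER2 windows lay near a start of STX10, so counts there belong to the locus and not to 1 gene alone.

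For each gene a start window was taken, the highest among those centred within 500 bp of a start. JUN, a frequent partner in AP-1 dimers, had the most open of them. Its start window (chr1:58783893-58784293, just upstream of the gene) stood at 6.34 ± 0.38 log2 CPM (SD, n = 8) in control and 6.33 ± 0.24 (SD, n = 8) in dTAGV-1 libraries. The controls ran from 5.43 in replicate 12 to 6.63, and the dTAGV-1 libraries from 5.92 in replicate 12 to 6.61. Apart from control replicate 12, the controls lay among the upper treated libraries, and the groups overlapped.

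ATF3 came next in level. Its start window (chr1:212608362-212608762) was centred at -199 bp from the canonical start, in an intron of a longer transcript. It stood at 5.88 ± 0.25 (SD, n = 8) in control and 5.92 ± 0.17 (SD, n = 8) in dTAGV-1 libraries on the log2 CPM scale. The start window of EGR1 (chr5:138464883-138465283), which holds 3 of the CArG boxes printed above, stood at 5.80 ± 0.55 (SD, n = 8) and 5.90 ± 0.34 (SD, n = 8). These levels differed from each other by less than either SD. In EGR1 the lowest values were 4.48 in control replicate 12 and 5.36 and 5.38 in dTAGV-1 replicates 12 and 11, and the other 13 libraries lay between 5.81 and 6.25.

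DUSP1 and IER2 formed a middle step. The DUSP1 window (chr5:172771077-172771477), which holds its cAMP response element, stood at 4.82 ± 0.29 (SD, n = 8) in control and 4.77 ± 0.21 (SD, n = 8) in dTAGV-1 libraries. The IER2 window (chr19:13151676-13152076) lies in an intron of a longer transcript, 1465 bp downstream of the canonical start. It is centred at -99 bp from another annotated start and holds the CArG box. It stood at 4.77 ± 0.30 (SD, n = 8) in control and 4.82 ± 0.26 (SD, n = 8) in dTAGV-1 libraries. The levels of DUSP1 and IER2 could not be ordered, since they differed by less than their spread.

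FOS and FOSB were open at a lower level. The FOS window (chr14:75278306-75278706), with its upstream CArG box, stood at 3.86 ± 0.38 (SD, n = 8) in control and 4.00 ± 0.20 (SD, n = 8) in dTAGV-1 libraries. That of FOSB (chr19:45469639-45470039, intronic) stood at 3.80 ± 0.33 (SD, n = 8) and 3.80 ± 0.21 (SD, n = 8). It lies at another annotated start, 1843 bp downstream of the canonical start. The FOSB window nearest the canonical start (chr19:45467470-45467870) stood at 2.34 ± 0.25 (SD, n = 8) and 2.60 ± 0.52 (SD, n = 8). The start windows of FOS and FOSB again differed by less than their spread. The FOS controls were 2.95 in replicate 12 and 3.87 to 4.11 in the others, and the dTAGV-1 libraries ran from 3.69 to 4.22, so the treated libraries lay on both sides of those 7 controls.

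JUNB, an AP-1 subunit, and EGR3, a relative of EGR1, had the least open of the start windows taken by this rule. The JUNB window (chr19:12791261-12791661) stood at 3.19 ± 0.33 (SD, n = 8) in control and 3.25 ± 0.39 (SD, n = 8) in dTAGV-1 libraries. The EGR3 window (chr8:22693338-22693738) stood at 2.34 ± 0.67 (SD, n = 8) and 2.68 ± 0.24 (SD, n = 8). The wide control spread of EGR3 came with a value of 0.80 in replicate 12, the other controls lying between 2.25 and 2.94. The treated libraries ran from 2.33 to 3.10. In the plot of start windows the order of genes was the same in both groups except for DUSP1 and IER2, which changed places within their spread.

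**Figure D1:**
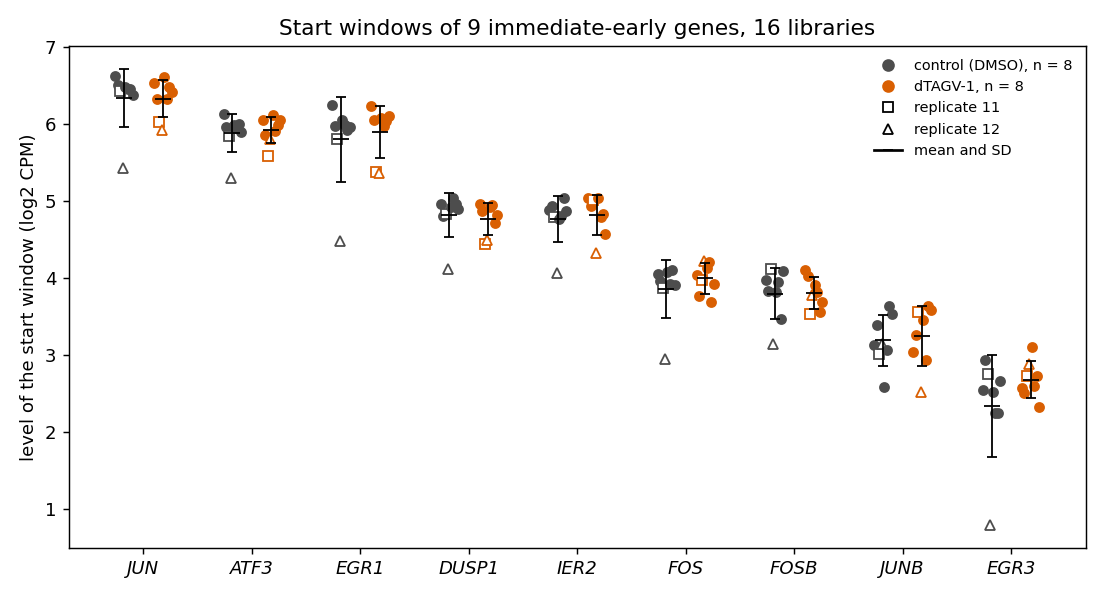
Level of the start window of 9 genes in log2 CPM (vertical axis), a point for each of 8 control and 8 dTAGV-1 libraries, with the mean and SD beside them; squares are replicate 11 and triangles replicate 12. The 2 groups overlap at every gene, from JUN (control mean 6.34) to EGR3 (2.34), and control replicate 12 is the lowest control at 8 of the 9.

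No window of these genes was called. By edgeR's quasi-likelihood test, adjusted after Benjamini-Hochberg over all 185040 tested windows with a threshold of 0.05, 0 of the 38 windows rose and 0 fell. Over all tested windows the same test called 2 higher, or 0.00108%, and 395 lower, or 0.213%. At an unadjusted p under 0.05 the count was also 0 of 38, against 2.85% of all tested windows, and DESeq2 called 0 as well. In 0 of the 38 windows did the 2 groups separate without overlap, against 0.0746% of all tested windows. With backgrounds this low, a count of 0 in 38 is near what the tested windows as a whole show.

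The size of what could have been missed was limited. The 38 log2 fold changes of dTAGV-1 over control ran from -0.18 to 0.28, with standard errors of 0.13 to 0.20. The upper ends of their 95% intervals ran from 1.12-fold to 1.56-fold, with a median of 1.26-fold. These intervals are not adjusted for the number of windows, so their ends are not the smallest opening that the adjusted test would call. An opening within them could have gone uncalled in single windows at this depth. In bulk libraries, a change in a few cells and a slight change in every cell cannot be told apart.

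**Figure D2:**
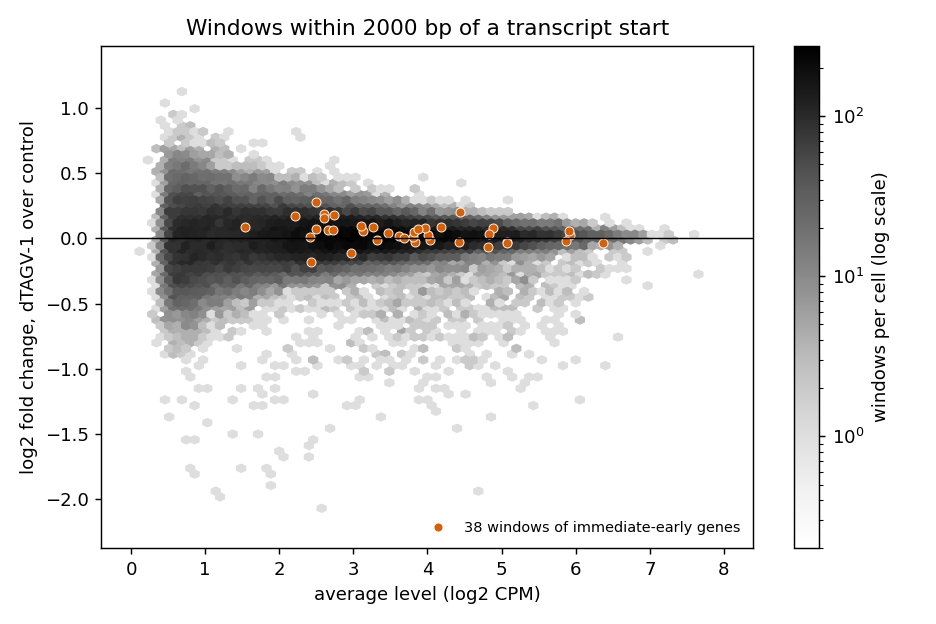
Average level in log2 CPM (horizontal axis) against the log2 fold change of dTAGV-1 over control (vertical axis) for tested windows within 2000 bp of any start, shaded by the number of windows on a log scale, with the 38 windows of the immediate-early genes as coloured points. The coloured points stay between -0.18 and 0.28 across all levels.

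Counts summed over all windows of a gene gave narrower errors. Of 28434 gene sums tested, edgeR's quasi-likelihood test called 2 higher (0.00703%) and 337 lower (1.19%), and 0 of the 9 tested immediate-early genes were among them in either direction. None had an unadjusted p under 0.05, against 4.22% of all gene sums, and the lowest was that of EGR3. The 95% intervals reached no higher than 1.25-fold, in JUNB, and no lower than 0.883-fold, in EGR1. The adjusted p was 1.00 for each of the 9 genes by edgeR's quasi-likelihood test.

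Among the AP-1 genes the summed level hardly moved. For FOS the control libraries had a lowest, median and highest level of 5.44, 5.77 and 5.91 log2 CPM, and the dTAGV-1 libraries of 5.63, 5.83 and 6.09. The log2 fold change was 0.058 (SE 0.074), or -0.014 without replicates 11 and 12 of both groups, and 6 of the 8 treated libraries lay within the range of the controls. FOSB, which pairs with JUN proteins as FOS does, had control levels of 5.57, 5.79 and 5.93 and dTAGV-1 levels of 5.43, 5.75 and 6.20. Its treated libraries spread wider on both sides than its controls, with replicate 15 lowest and replicate 11 highest, and its log2 fold change was 0.00077 (SE 0.086).

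JUN summed to 6.95, 7.21 and 7.29 log2 CPM in control and to 6.997, 7.24 and 7.31 in dTAGV-1 libraries (lowest, median and highest), with a log2 fold change of 0.010 (SE 0.066). JUNB summed to 4.57, 4.85 and 5.46 in control and to 4.75, 4.91 and 5.50 in dTAGV-1 libraries, with a log2 fold change of 0.089 (SE 0.11), or 0.016 without dTAGV-1 replicate 11. The highest treated library of JUNB was replicate 11, and 7 of the 8 lay within the control range. Neither gene's difference exceeded its spread between libraries. ATF3, the stress-response factor, gave the value closest to 0: 7.23, 7.34 and 7.47 in control, 7.14, 7.36 and 7.49 in dTAGV-1 libraries, and a log2 fold change of -0.00016 (SE 0.063).

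The EGR genes lay far apart in summed level, EGR1 at percentile 99.4 of all genes and EGR3 at percentile 53.8. EGR1 summed to 6.82, 7.46 and 7.68 log2 CPM in control and to 7.07, 7.51 and 7.65 in dTAGV-1 libraries, and all 8 treated libraries lay within the control range. Its log2 fold change was 0.021 (SE 0.098). EGR3 summed to 4.02, 4.83 and 5.01 in control and to 4.596, 4.92 and 5.33 in dTAGV-1 libraries, with a log2 fold change of 0.10 (SE 0.097, unadjusted p = 0.312 by edgeR's quasi-likelihood test), or 0.035 without replicates 11 and 12 of both groups. That was the largest fold change of the 9 genes. Of the treated EGR3 libraries 7 of 8 lay above the control median and 7 of 8 within the control range. Without replicates 11 and 12 of both groups, EGR3 averaged 4.88 ± 0.12 (SD, n = 6) in control and 4.92 ± 0.019 (SD, n = 6) in dTAGV-1 libraries.

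IER2 summed to 5.68, 5.93 and 6.10 log2 CPM in control and to 5.71, 5.99 and 6.24 in dTAGV-1 libraries, with a log2 fold change of 0.033 (SE 0.076), or 0.000038 without dTAGV-1 replicate 11. In 3 treated libraries it lay above the highest control. DUSP1, the feedback phosphatase, summed to 6.25, 6.43 and 6.59 in control and to 6.36, 6.44 and 6.54 in dTAGV-1 libraries, with a log2 fold change of 0.014 (SE 0.062). All 8 treated libraries lay inside the control range of DUSP1, and its dispersion stood at percentile 3.11 among genes of its level, so it was also among the steadiest between libraries. JUNB and EGR1, at percentiles 90.4 and 86.4, were the least steady.

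**Figure D3:**
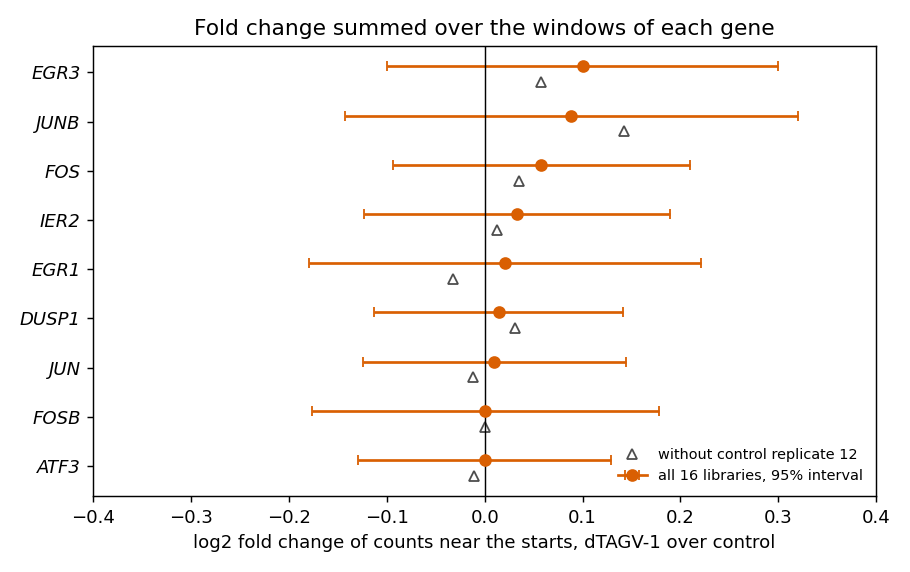
Log2 fold change of the gene sums, dTAGV-1 over control (horizontal axis), for 9 genes, with 95% intervals from all 16 libraries (filled points) and the value without control replicate 12 (open triangles). Every interval includes 0, and the filled points run from -0.00016 in ATF3 to 0.10 in EGR3.

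Among the windows other than the start windows none was called either. The lowest unadjusted p of the 38, 0.125 by edgeR's quasi-likelihood test, belonged to the window of FOSB that holds both a cAMP response element and a CArG box (chr19:45467470-45467870, centred at -326 bp from the canonical start and outside the gene). Its controls had a lowest, median and highest level of 1.899, 2.38 and 2.64 log2 CPM, and its dTAGV-1 libraries of 2.10, 2.48 and 3.66. The value of 3.66 was that of dTAGV-1 replicate 11, and replicate 12 followed with 3.04. The log2 fold change was 0.28 (SE 0.18). It was 0.096 without dTAGV-1 replicate 11 and 0.045 without replicates 11 and 12 of both groups. The adjusted p was 1.00 in each of these fits by edgeR's quasi-likelihood test.

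The next 3 windows were picked after their values were seen. The JUN window at chr1:58785044-58785444 lay upstream of the gene and was centred within the annotated span of LINC01135. Its controls ran from 3.96 to 4.66 with a median of 4.32, and its dTAGV-1 libraries from 3.94 to 4.77 with a median of 4.61. Here 6 of the 8 treated libraries lay above the control median, and the 2 below it were replicates 11 and 12. The log2 fold change was 0.20 (SE 0.14, unadjusted p = 0.146), and without replicates 11 and 12 of both groups it was 0.24 (SE 0.089, unadjusted p = 0.00783, adjusted p = 0.737), all by edgeR's quasi-likelihood test. By the same edgeR quasi-likelihood test it was 0.21 with the replicate block (unadjusted p = 0.0196, adjusted p = 0.969). With cyclic loess offsets it was also 0.21 (unadjusted p = 0.0225, adjusted p = 0.9999, by edgeR's quasi-likelihood test). In the EGR3 window at chr8:22694241-22694641, 5 of 8 dTAGV-1 libraries lay above the highest control, at 2.37. Its log2 fold change was 0.17 (SE 0.17) and fell to 0.11 without control replicate 12, whose level of 0.80 was the lowest.

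The ATF3 window at chr1:212567061-212567461, in an intron and holding the AP1 site, had the most negative fold change of the 38. It was centred at -41500 bp from the canonical start and at 1927 bp from another annotated start. Its controls had a lowest, median and highest level of 1.08, 2.602 and 3.05 log2 CPM, and its dTAGV-1 libraries of 1.71, 2.31 and 2.74. The groups overlapped, with 1 of 8 treated libraries above the control median and the lowest value of all in control replicate 12. The log2 fold change was -0.18 (SE 0.18, unadjusted p = 0.298), -0.25 without control replicate 12 and -0.30 without replicates 11 and 12 of both groups (unadjusted p = 0.0694), with an adjusted p of 1.00 in each fit by edgeR's quasi-likelihood test.

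**Figure D4:**
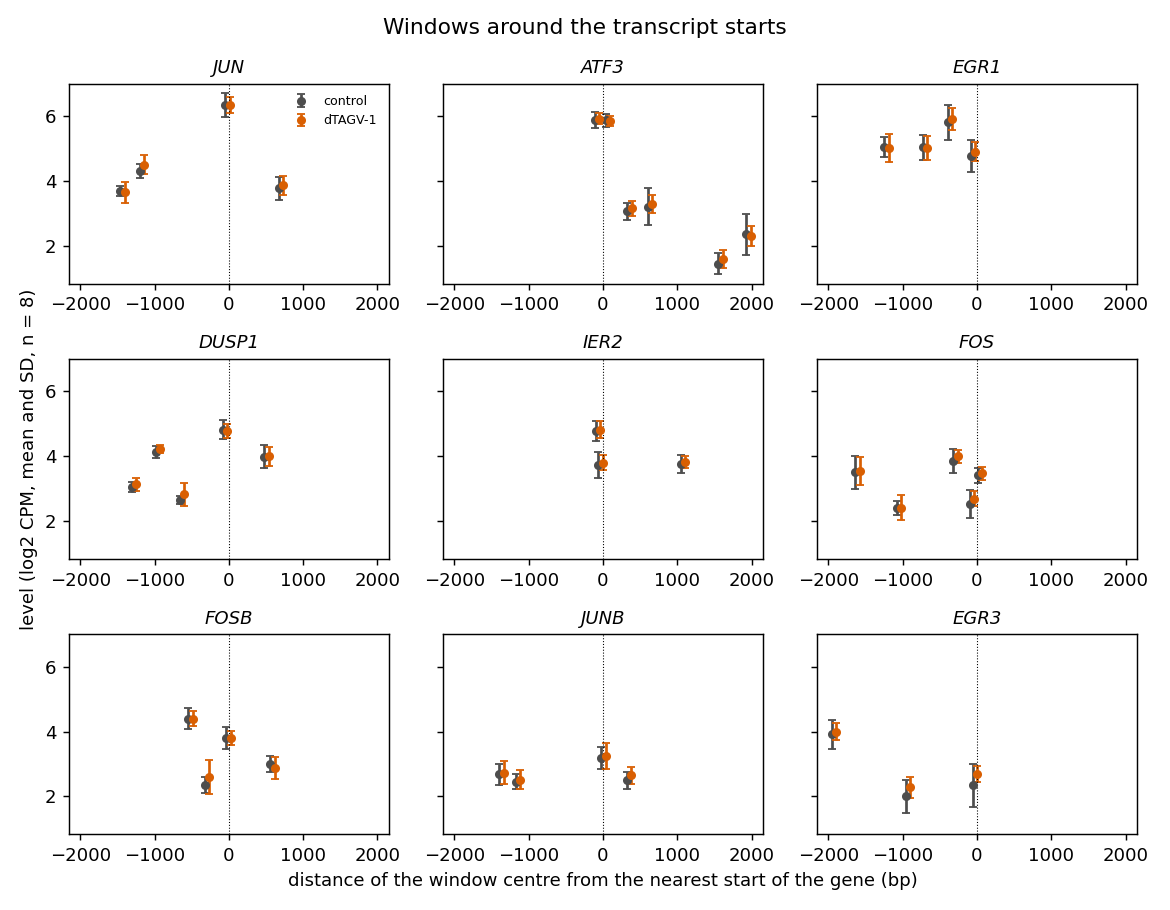
Level of each tested window in log2 CPM (vertical axis, mean and SD of 8 libraries) against the distance of its centre from the nearest start of the gene in bp (horizontal axis), a panel for each of 9 genes, control and dTAGV-1 side by side. At no window does the difference between the group means exceed both SDs, and most of the signal of JUN and ATF3 sits in the windows next to a start. In EGR1 the highest window is centred at -396 bp. Its windows at -733 and -1251 bp have control means of 5.04 and 5.05, above 4.77 at -85 bp.

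The signs of the 38 fold changes leaned to the positive side, and the lean moved with the libraries used. Of the 38, 27 (71.1%) were above 0, against 51.8% of all tested windows and 53.5% of those near starts. Their median was 0.043, against 0.0077 and 0.011. Without control replicate 12, 17 of 38 were above 0 with a median of -0.0039, and near starts 43.4% with a median of -0.023. Without replicates 11 and 12 of both groups the count was 18 of 38, with a median of -0.0044. Without dTAGV-1 replicate 12 it was 32 of 38, with a median of 0.067. With all libraries the lean stayed under cyclic loess offsets (26 of 38, median 0.046) and the replicate block (25 of 38, median 0.043). Control replicate 12 gave the lowest of 16 values in 23 of the 38 windows (60.5%), against 39.5% of windows near starts and 22.9% of all tested windows. The 8 windows with a CArG box had fold changes from 0.026 to 0.28 with a median of 0.069, all above 0, and none was called. In 6 of these 8 windows control replicate 12 was the lowest library. Without it 4 of 8 were above 0, with a median of -0.0035, and without replicates 11 and 12 of both groups 4 of 8 with a median of 0.018.

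The distance that defined the windows had no bearing on the count of calls. Just inside 2000 bp lay the EGR3 window at -1952 bp, with a log2 fold change of 0.026. So did the ATF3 window at 1927 bp from an annotated start other than the canonical one, with -0.18. Just outside lay an IER3 window at 2005 bp, which had too few counts to be tested, a JUNB window at 2130 bp, with -0.034, and an EGR3 window at -2329 bp, with -0.051. Within 500 bp 18 windows were tested and within 5000 bp 42, and 0 were called in each.

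IER3, a regulator of cell survival, could not be measured. Its 2 windows (chr6:30742639-30743039 and chr6:30744409-30744809) held 0 counts in all 16 libraries, although the authors' peak call gave them deposited -log10 q values of 55.0 and 20.7. Both lay inside an unbroken run of 68 windows with 0 counts that covered chr6:29752993-31137628, where the deposited -log10 q ran from 2.49 to 245. Over the whole genome, 2816 windows (1.33%) had 0 counts in all 16 libraries. The summit list of replicates 1 to 8 held 1 summit near IER3, with a deposited -log10 score of 8.13. A count of 0 over such a run is not read here as closed chromatin, and IER3 was left out of every comparison between the groups.

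Genes that act beside or above the members were examined in the same gene sums. Of 42 other immediate-early genes, among them EGR2, FOSL1, NR4A1 and CCN1, all 42 were tested, 0 were called, and 0 had an unadjusted p under 0.05. Their median log2 fold change was 0.012, with 26 of 42 above 0, beside 0.0075 over all gene sums, of which 53.6% were above 0. The smallest p among those above 0 was that of TNFAIP3, an inhibitor of NF-kB signalling, at 5.26 ± 0.14 log2 CPM (SD, n = 8) in control and 5.39 ± 0.072 (SD, n = 8) in dTAGV-1 libraries. Its log2 fold change was 0.12 (SE 0.069, unadjusted p = 0.106 by edgeR's quasi-likelihood test), and 8 of 8 treated libraries lay above the control median. Among those below 0 it was that of MCL1, an anti-apoptotic BCL2 relative, with -0.077 (SE 0.076).

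Of 28 genes of the upstream pathway, including SRF, ELK1, CREB1 and the MAP kinases, 27 were tested and 0 were called. HRAS, with 0 counts in its 1 window, was not measured. Their median log2 fold change was 0.021, and 21 of 27 were above 0. RPS6KA4, a kinase that phosphorylates CREB and histone H3 downstream of the MAP kinases, had the smallest p below 0, with a log2 fold change of -0.16 (SE 0.12), and no gene of this list had an unadjusted p under 0.05.

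Heat shock and stress genes, which respond to proteotoxic stress rather than to serum, were tested in 13 of 15 cases, and 0 were called. Not measured were HSPA1A, which had 0 windows near a start, and HSPA1B, whose 2 windows held 0 counts in all 16 libraries. Their median was 0.027, with 9 of 13 above 0. HSPH1, a cytosolic chaperone of the HSP110 family, had the smallest p. It stood at 6.28 ± 0.20 log2 CPM (SD, n = 8) in control and 6.10 ± 0.073 (SD, n = 8) in dTAGV-1 libraries, a log2 fold change of -0.21 (SE 0.071, unadjusted p = 0.00749, adjusted p = 0.340 by edgeR's quasi-likelihood test), with 0 of 8 treated libraries above the control median. HSF1, the master regulator of the heat shock response, gave the smallest p above 0, with 0.062 (SE 0.077).

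**Figure D5:**
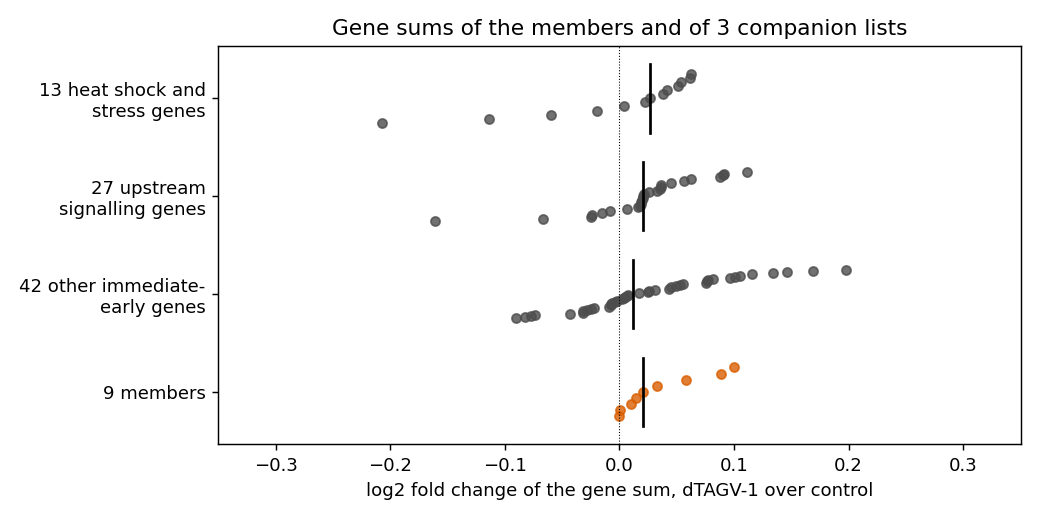
Log2 fold change of the gene sums, dTAGV-1 over control (horizontal axis), a point for each gene of 4 lists (vertical axis): 9 members, 42 other immediate-early genes, 27 upstream signalling genes, and 13 heat shock and stress genes. All 4 lists lie close to 0 with medians of 0.021, 0.012, 0.021 and 0.027, and the lowest point is HSPH1 at -0.21.

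The contrast compares treated with control libraries that went through the same harvest on ice. An opening that handling caused in both groups alike would raise both and cannot be told apart from the resting level of these loci, since no unhandled sample is part of the design.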

How the data were processed

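For 16 libraries the authors deposited raw counts in windows of 401 bp, with a -log10 q for each window, per the file headers and values. The deposited summit list gives a -log10 score per summit and no value per library. Reads were processed with cutadapt 1.8.1, Bowtie2 2.4.4 and SAMtools 1.9 on hg38, per the submitters' processing notes; the peak caller, the counting tool and any shift of reads for Tn5 are not given in the sources used here. Counting of fragment ends in pairs would raise the spread, which the fitted dispersion includes.

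Windows were assigned to transcript starts of GENCODE release 44. The quasi-likelihood test of edgeR 4.0.16 (R 4.3.3), after filterByExpr and TMM scaling, compared dTAGV-1 with control libraries without a covariate, and p-values were adjusted by Benjamini-Hochberg over all windows or over all gene sums. A gene sum adds the counts of all windows within 2000 bp of a start of the gene, so overlapping windows count shared reads again. Alternatives were DESeq2 1.42.0, its size factors, no low-count filter, cyclic loess offsets from limma 3.58.1, the replicate number as a block, other distances, and leaving out libraries. Chi-square per degree of freedom was 1.63 to 4.99 in 56 within-group pairs, so no pair agreed within sampling noise. The test was tested on simulated data. Sequences and motifs were read from hg38 with pysam 0.24.0.

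Named were all 10 members, each with its start window and gene sum where it had counts, every member window with an unadjusted p under 0.05, and from each of 3 companion lists (other immediate-early, upstream signalling, heat shock and stress) the called genes or else the gene with the smallest p in each direction. A gene that this rule names in the upstream list is not reported here. The members and lists were chosen with earlier results of these data known.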

Additional observations from a re-analysis of the deposited data

Results flagged for a closer look

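In 36 groups of 8 libraries, covering the gene sums and start windows of 9 genes in each condition, 12 values stood apart from the other 7 by Dixon's test at the 95% level. Chance does so in about 1 of 20 independent groups. These groups are not independent, since each start window is part of its gene sum and the same libraries recur. All 12 were low values of control replicate 12, the library with the lowest total and the lowest share of counts in the most open windows. Among gene sums this library stood at 5.44 log2 CPM in FOS, 6.95 in JUN, 6.82 in EGR1, 4.02 in EGR3 and 5.68 in IER2. The other controls began at 5.74, 7.16, 7.36, 4.71 and 5.90 respectively. Among start windows it stood at 5.30 in ATF3, 4.12 in DUSP1, 4.48 in EGR1, 0.80 in EGR3, 2.95 in FOS, 4.06 in IER2 and 5.43 in JUN. The other controls began at 5.84, 4.81, 5.81, 2.25, 3.87, 4.77 and 6.37 respectively. No dTAGV-1 library stood apart in this way in any of the 18 treated groups. Without control replicate 12 the log2 fold change of the gene sum was 0.035 in FOS, -0.011 in JUN, -0.033 in EGR1, 0.057 in EGR3 and 0.013 in IER2, and none was called.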

How the results depend on the processing

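The count of called windows and of called gene sums among the members was 0 in each direction under every alternative tried. Over all windows the calls numbered 397 in the reported fit, 684 with cyclic loess offsets, 632 without control replicate 12, 781 without replicates 11 and 12 of both groups, and 508 with DESeq2; for gene sums they numbered 339, 423, 469, 604 and 472. The sign of the smallest fold changes of gene sums was not stable, and the lowest adjusted p over all fits was 0.983: ATF3 gave 0.0026 with DESeq2 size factors, 0.0026 without a low-count filter and 0.016 with loess offsets, against -0.00016, and without replicates 11 and 12 of both groups FOS gave -0.014 and FOSB -0.060. Leaving out 1 library at a time moved ATF3 from -0.018 to 0.027, DUSP1 from -0.011 to 0.038, EGR1 from -0.033 to 0.068, FOSB from -0.061 to 0.048 and JUN from -0.011 to 0.036. The cause was not tested. EGR3, IER2 and JUNB kept a positive sign in all fits but moved from 0.056 to 0.13, from 0.000038 to 0.073 and from 0.016 to 0.14 with 1 library left out, and FOS from 0.021 to 0.085. The lowest values of JUNB and IER2 were those without dTAGV-1 replicate 11. Same-numbered libraries of the 2 groups had correlated deviations of 0.028 to 0.34, 5 of 8 were over 0.1, and 5 of 8 matched their own number best, a hint of pairing in the data. The labels do not say what a number marks, and not every pair was over 0.1, so the reported fit has no block. With the replicate block 753 windows and 720 gene sums were called, again 0 of the members, and FOSB gave -0.0062. Counting depth limits single windows to the interval widths given above.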
